A study of Mus musculus with 8 samples.

Results

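Barcodes with the keratin signature of pancreatic duct epithelium were isolated computationally from the libraries of dispersed mouse islets, where they travel with the endocrine cells. A barcode was taken as a member when Ins1, Ins2, Gcg and Sst together held under 5% of its UMIs (unique molecular identifiers, each standing for 1 captured RNA molecule). It also needed a UMI for at least 4 of the 7 genes Krt19, Krt8, Krt18, Krt7, Spp1, Epcam and Anxa3, one of them Krt19. Of 17426 barcodes deposited, 10876 passed the limits on genes and mitochondrial UMIs, 8994 of these held at least 1000 UMIs, and 76 met the rule. The members were thus chosen by their measured UMIs of these genes, so their levels of the 7 genes and their differences from other cells are given as a description with no test.

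In each of 2 replicates, islets of 10 male C57BL6/J mice aged 12 to 16 weeks (strain C57BL/6 in the labels) were pooled and divided over 4 conditions before culture for 18 h. Islets stayed untreated, received both IL-1β (10 U/mL) and IFN-γ (150 U/mL), called cytokines below, received both cytokines plus NMMA (2 mM), or received only NMMA (2 mM). NMMA inhibits nitric oxide synthase, and the study asks which gene expression changes in islet cells depend on cytokines and on nitric oxide. Each condition and replicate gave 1 library of single-cell RNA, 8 in all, with 26549922 to 50731370 UMIs, so that a replicate is a pool of mice and p-values measure the spread between libraries of these pools.

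Duct cells line the channels that carry digestive enzymes from acinar cells to the gut, and they secrete bicarbonate and fluid. They rest on keratin filaments and tight junctions and depend on the transcription factor Sox9 and the Onecut family. Islets are freed from the surrounding exocrine tissue by collagenase, and some duct and acinar cells stay attached. Interferon-γ acts through the kinases Jak1 and Jak2 on sites in promoters, and induces the factor Irf1, which acts on further sites.

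The 76 members were unevenly spread over the libraries. Replicate 1 held 23 untreated members, 14 from cytokines, 16 from cytokines plus NMMA and 12 from NMMA alone. Replicate 2 held 6, 0, 1 and 4 in the same order. Thus 65 of the 76 came from a single pool of mice, and 31 had seen cytokines against 45 that had not.

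The members fell into 2 sets by their content of acinar enzyme RNA. In 58 of them a list of 19 acinar genes, mostly digestive enzymes, held at most 0.159% of the UMIs, and these are called enzyme-poor. In the other 18 the list held from 19.1% to 68.6%, with a median of 43.1%, and these are called enzyme-rich. No member lay between 0.159% and 19.1%. All 18 enzyme-rich members came from replicate 1, where 3 were untreated, 6 had cytokines, 4 had cytokines plus NMMA and 5 had NMMA alone.

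Ductal marker genes also differed between the sets, with overlapping ranges. The enzyme-poor members had UMIs of 5 to 22 of 23 ductal markers (median 17), whereas the enzyme-rich members had 4 to 11 (median 9). In all 18 enzyme-rich members Onecut2, Cftr (the chloride channel of duct fluid), Tspan8, Bicc1, Pkhd1 and Dcdc2a were at 0. Cftr had UMIs in only 3 of the 58 enzyme-poor members as well. Sox9 and Krt7 each had a UMI in 1 of the 18, and Spp1 in 5. Other ductal markers were found in more of them, with Epcam and Cldn3 in 17 of the 18, Cldn7 in 13, Cdh1 in 11, and Muc1 and Anxa3 each in 10. The enzyme-rich members instead carried Ctrb1, chymotrypsinogen, at 149780 CPM (UMIs per 1000000 UMIs of the summed barcodes), and all 18 had Krt8 and Krt18. The label of a ductal cell was therefore borne out by only part of the markers in these 18 barcodes. They are described below only as enzyme-rich.

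**Figure D1:**
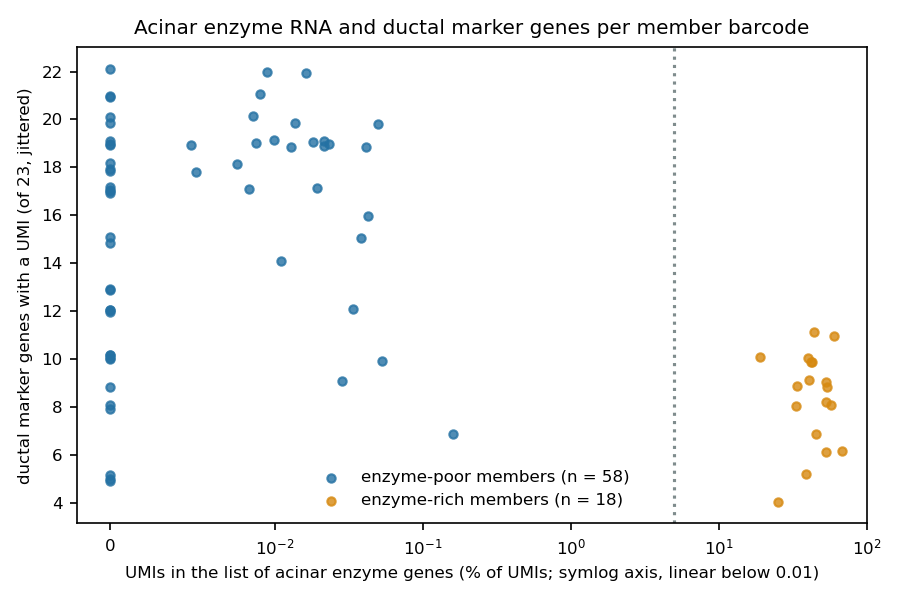
Each point is 1 of the 76 member barcodes, with the share of UMIs in 19 acinar genes on a symlog x axis (linear below 0.01%) and the number of 23 ductal markers with a UMI on the y axis. The 58 enzyme-poor members lie at or below 0.159% with 5 to 22 markers, and the 18 enzyme-rich members at 19.1% or more with 4 to 11.

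Among the 58 enzyme-poor members a further 5 carried pancreatic polypeptide, endothelial or macrophage RNA that points to another cell. In 3 of them pancreatic polypeptide genes (Ppy and Pyy) took 61.8%, 32.3% and 13.0% of the UMIs. Another had UMIs of all 8 endothelial markers, and the fifth had all 10 macrophage markers. Of these 5, 4 were in the untreated library of replicate 2 and made up most of its 6 members, so that values of that library for macrophage and endocrine genes rest on them. Outside these 5, a member with cytokines and NMMA in replicate 1 had UMIs of 5 of 6 endocrine markers. It had 1 Krt19 UMI and UMIs of 14 of 23 ductal markers, and it stayed in every enzyme-poor fit of that library. No member was called a doublet by scrublet, which called 99 of the kept barcodes (0.910%). Of 10862 distinct kept barcodes 14 occurred in more than 1 library, and none of them was a member.

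Some barcodes lay next to the rule's limit on the marker side. There were 12 members with exactly 4 of the 7 marker genes and 42 with all 7, and 9 barcodes stayed outside with 3. On the hormone side 255 barcodes with Krt19 and 4 or more marker genes stayed outside at 5% or more. The nearest of these held 5.71% hormone UMIs and the nearest member 2.62%. Members had between 1031 and 130810 UMIs with a median of 12031, and the highest enzyme-poor member had 29388. The median share of mitochondrial UMIs was 3.96% in enzyme-poor and 0.194% in enzyme-rich members.

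The enzyme-poor members were rich in keratin RNA. Krt18, a simple-epithelial keratin, was at 5026 CPM against 268 in all other kept barcodes, and its partner Krt8 at 4920 against 203. Spp1, which encodes the secreted phosphoprotein osteopontin, was at 10410 against 313, and the adhesion molecule Epcam at 2104 against 192. Krt19 was at 1528 against 2.72 and Anxa3, an annexin, at 798 against 7.22. These genes chose the members, so the contrast only shows how the rule worked.

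Outside the rule, the 20 genes with the highest ratio to all other barcodes were led by Krt17, another keratin. It was at 366 CPM in enzyme-poor members against 0.071 elsewhere, with UMIs in 22 of the 58. Mal, which sorts membrane to the apical side, was at 262 against 0.17, and the secreted Wfdc18 and Wfdc2 at 545 against 0.37 and 690 against 0.72. Car2, carbonic anhydrase of bicarbonate secretion, was at 105 against 0.23 in 18 of the 58. The most abundant of the 20 leading genes was Clu, the secreted chaperone clusterin, at 11935 against 96.8. Clu was at 12538 in the enzyme-rich members as well. The rest of these leading genes were Ankrd1, Cdh6, S100a14, Tstd1, Fermt1, Slc39a4, Sox9, Itgb6, Onecut2, Fbln2, Mmp7, Tinagl1, Kcnn4 and 2200002D01Rik, all between 112 and 385 CPM. Of these, Ankrd1 was at 901 CPM in the untreated library of replicate 2 and at 86.7 to 136 in the 5 other libraries with at least 4 members. Wfdc18 was at 3415 CPM in the 4 members of the NMMA library of replicate 2 and at 166 to 457 in the 5 others. Krt17 ran from 0 with NMMA to 736 with cytokines and NMMA, both in replicate 1.

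Duct transcription factors and junction genes were detected in part of these cells. Sox9 had UMIs in 34 of 58 enzyme-poor members (252 CPM against 1.02 elsewhere) and Onecut2 in 34. The claudins Cldn7 and Cldn3 of tight junctions were found in 49 and 46, E-cadherin (Cdh1) in 48, the tetraspanin gene Tspan8 in 40 and the mucin gene Muc1 in 38. The bicarbonate cotransporter Slc4a4 had UMIs in 37 of 58, the fibrocystin gene Pkhd1 of primary cilia in 20, and Cftr in only 3. Mki67, a mark of dividing cells, was found in 0 of 58, which allows a share of up to 5.17% of cells with a UMI. Of the 6 genes in the list of proliferation markers, Ccnb1 was also at 0. Top2a and Birc5 were each found in 2 members and Cdk1 and Cenpf each in 1, and 6 of 58 members had a UMI of the list.

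Levels varied between libraries of the same kind. Spp1 in enzyme-poor members was at 23176 CPM in the untreated and 18385 in the NMMA library of replicate 1, but at 812 in the untreated library of replicate 2. Clu was at 21835, 12514 and 2554 in the same libraries. Both genes were lowest in the untreated library of replicate 2, where 4 of the 6 members carried markers of other cell types.

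Members made up about 1% of barcodes in replicate 1 and less in replicate 2. Among kept barcodes with at least 1000 UMIs, their share in replicate 1 was 1.09% untreated, 1.08% under cytokines, 1.78% under cytokines plus NMMA and 1.23% under NMMA. In replicate 2 it was 0.536%, 0%, 0.129% and 0.377%, where 0 of 767 barcodes allows up to 0.391%. All 4 libraries of replicate 1 lay above all 4 of replicate 2, with means of 1.30% ± 0.331 and 0.260% ± 0.241 (SD, n = 4 libraries each, a difference of 1.04 percentage points). This excess was known when the members were chosen, and each replicate is 1 pool of mice, so it is a description with no test. With cytokines the mean was 0.749% ± 0.842 and without 0.808% ± 0.416 (SD, n = 4 libraries each), and the groups overlapped fully (exact permutation test, two-sided, p = 0.943). Fewer cells of a type and less RNA per cell, which would drop cells below the UMI minimum, cannot be told apart in these shares.

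To ask how the members responded to cytokines, their UMIs were summed per library and tested in the 5 libraries with at least 5 members. These are the untreated, NMMA, cytokine and cytokine with NMMA libraries of replicate 1 and the untreated library of replicate 2. The test set 2 libraries with cytokines against 3 without, and both cytokine libraries come from 1 pool. Enzyme-rich members entered these sums, unevenly between libraries. Of the 301016 member UMIs with cytokines and NMMA in replicate 1, 146783 were in enzyme-poor members and 130814 in 1 enzyme-rich barcode. In the untreated library of replicate 1, 194802 of 285873 were in enzyme-poor members and 80361 in 1 enzyme-rich barcode. The untreated library of replicate 2 had no enzyme-rich member. Of 3311 genes tested, 35 (1.06%) rose and 0 (0.0%) fell at an adjusted p under 0.05 (edgeR's quasi-likelihood test with Benjamini-Hochberg adjustment), and 207 had an unadjusted p under 0.05. Each of the 35 was higher in both cytokine libraries than in all 3 others, which also held for 12.9% of all genes tested. In the enzyme-poor members of these libraries alone 34 of 2685 genes (1.27%) rose and 0 fell, and 31 genes were called in both. Blocking on the replicate gave 39 calls in all members and 59 in enzyme-poor members. The count rests on single libraries, with 0 genes called without the untreated library of replicate 1, 23 without its cytokine library and 60 without its library with cytokines and NMMA. Of gene lists fixed for this report, 31 of the 35 called genes belong to one. The lists were chosen with earlier results of these data known, and the share of all tested genes in a list is not given. This overlap is therefore a description only.

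Guanylate-binding proteins (GBPs) and immunity-related GTPases (IRGs), large GTPases that attack the vacuoles of intracellular microbes, gave the steepest contrasts. Gbp2 had 354 UMIs with cytokines and 418 with cytokines and NMMA, against 1 untreated, 0 with NMMA and 1 in the untreated library of replicate 2. That is a ratio of 431 (exact 95% interval 119 to 3561, adjusted p = 0.00227 in edgeR's test). This interval and those of the other ratios treat UMIs summed over cells and libraries as independent and cover counting error only. Iigp1 had 156 and 157 UMIs with cytokines and none in the 3 other libraries, at least 116-fold higher (3 counts over the group without UMIs set this bound, adjusted p = 0.00399 in edgeR's test). Neither gene had any overlap between the groups.

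Other members of both families behaved alike. Igtp had 77 and 114 UMIs with cytokines against 0, at least 71.0-fold higher. Gbp4 had 64 and 91 against 0 (at least 57.6-fold) and Gbp3 had 89 and 53 against 0 (at least 52.8-fold). For all 3 the adjusted p was 0.0059 in edgeR's test, and the groups did not overlap. Of the 5 GBPs tested 4 rose, and of the 5 IRGs tested 4 rose. The median log2 change was 5.72 and 5.86 with genes of 0 UMIs at their bounds, beside 0.01 over all genes tested. These families share sequence among their members, so the split of reads between, for example, Gbp2, Gbp3 and Gbp7, neighbours on chromosome 3, is uncertain, as it is among the H2 genes below.

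The promoters of 4 of these genes and regulators are printed because they hold the motifs that interferon-activated factors read. The windows run from 250 bases before to 50 after the start of transcription, in RefSeq's annotation of GRCm38.p6. The core of the interferon-stimulated response element (ISRE, TTTCNNTTTC on either strand) and the gamma-activated site (GAS, the palindrome TTCNNNGAA) are in capitals. Gbp2 (chr3:142620413-142620712, plus strand) has the ISRE core from 59 to 50 bases before the start:
Gbp2: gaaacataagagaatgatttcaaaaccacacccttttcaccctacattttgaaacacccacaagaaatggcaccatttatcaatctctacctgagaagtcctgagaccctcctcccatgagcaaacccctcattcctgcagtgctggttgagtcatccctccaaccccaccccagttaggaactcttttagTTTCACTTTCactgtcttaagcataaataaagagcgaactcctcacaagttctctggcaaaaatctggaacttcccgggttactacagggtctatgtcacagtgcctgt
Igtp (chr11:58199306-58199605, plus strand) has a GAS from 45 to 37 and the ISRE core from 34 to 25 bases before the start:
Igtp: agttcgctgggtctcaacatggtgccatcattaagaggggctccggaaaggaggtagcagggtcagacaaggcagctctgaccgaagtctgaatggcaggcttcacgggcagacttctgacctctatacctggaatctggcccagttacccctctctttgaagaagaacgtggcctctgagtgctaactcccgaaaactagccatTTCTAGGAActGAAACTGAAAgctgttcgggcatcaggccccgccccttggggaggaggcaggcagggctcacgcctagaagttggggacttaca
Socs1 (chr16:10785487-10785786, minus strand) has 2 ISRE cores that overlap each other, from 83 to 74 and from 77 to 68 bases before the start:
Socs1: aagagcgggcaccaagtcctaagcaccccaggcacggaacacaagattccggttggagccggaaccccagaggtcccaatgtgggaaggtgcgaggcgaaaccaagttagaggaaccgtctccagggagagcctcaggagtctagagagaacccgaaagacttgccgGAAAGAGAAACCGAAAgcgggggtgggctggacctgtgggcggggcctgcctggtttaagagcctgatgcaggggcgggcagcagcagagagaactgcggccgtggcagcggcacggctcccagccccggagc
Irf1 (chr11:53769764-53770063, plus strand) has a GAS from 90 to 82 bases before the start:
Irf1: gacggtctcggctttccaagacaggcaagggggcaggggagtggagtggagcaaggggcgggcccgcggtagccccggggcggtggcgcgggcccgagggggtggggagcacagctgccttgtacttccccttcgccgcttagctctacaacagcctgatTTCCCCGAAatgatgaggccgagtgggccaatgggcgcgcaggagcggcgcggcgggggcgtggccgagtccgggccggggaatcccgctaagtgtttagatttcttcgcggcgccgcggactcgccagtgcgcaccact

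Among the 35 called genes, 28 had a promoter in RefSeq's table by symbol. The ISRE core was in 13 of the 28, and in 1079 of 27025 genes of the table (3.99%). The GAS was in 8 of the 28, and in 2582 of 27025 genes (9.55%). Isg15, Ifit1, Ifit3, Gbp3, Gbp7, H2-T23 and Ifitm3 are among those with the ISRE core besides the 3 shown. Gbp7, Ifitm3, Psmb8, Icam1 and Samhd1 are among those with the GAS besides the 2 shown. A match shows only that these letters are in the window.

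Antiviral effectors and interferon signalling genes rose in part. Isg15, a ubiquitin-like modifier, had 113 and 87 UMIs with cytokines against 2, 0 and 1 without (ratio 74.4, exact 95% interval 25.1 to 364). Ifit3, which binds viral RNA complexes, had 68 and 148 against 1, 0 and 1 (ratio 120, interval 32.9 to 1001). Zbp1, a sensor of Z-form nucleic acid, had 79 and 23 against 1, 0 and 0. No library without cytokines reached the lower cytokine library in any of these 3. Of 14 antiviral genes tested 6 rose, namely Ifit1, Ifit3, Isg15, Zbp1, Samhd1 and Parp14, with a median log2 change over the list of 3.87.

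The regulators that rose were Irf1, Irf7 and Socs1, which is 3 of 9 signalling genes tested (median log2 change 0.89). Socs1, which shuts down Jak kinases, had 80 and 67 UMIs with cytokines against 1, 0 and 0 (ratio 164, interval 29.0 to 6520, adjusted p = 0.00399 in edgeR's test). Irf1 had 58 and 118 against 5, 2 and 6, a log2 change of 3.72 ± 0.60 (SE, adjusted p = 0.0283 in edgeR's test). The receptor chain Ifngr1 and the factor Stat3 were detected in every library, with log2 changes of 0.58 and 0.60 that did not pass the test.

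Genes of MHC class I presentation formed the longest called list, with 11 of 17 tested and a median log2 change of 2.84. Psmb8, a catalytic subunit of the immunoproteasome, had 271 and 156 UMIs with cytokines against 9, 7 and 9 without, a log2 change of 4.20 ± 0.50 (SE, adjusted p = 0.0059 in edgeR's test). Tap1, a chain of the peptide transporter, is a neighbour on chromosome 17 and had 98 and 63 against 2, 2 and 3 (log2 change 4.68 ± 0.57, adjusted p = 0.0059 in edgeR's test). Both were higher in each cytokine library than in every other, and Psmb9, another catalytic subunit, and the nonclassical H2-T23 rose too.

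The classical class I chains themselves did not pass the test. H2-K1 had 484 and 250 UMIs with cytokines against 115, 50 and 93, a log2 change of 1.69 ± 0.42 (SE, adjusted p = 0.190 in edgeR's test). B2m, the shared light chain, had 346 and 260 against 56, 26 and 131 (log2 change 1.76 ± 0.82, adjusted p = 0.882 in edgeR's test). In both genes the cytokine libraries had the highest counts, while the scaled level of B2m in the untreated library of replicate 2 (1305 scaled CPM) was above that with cytokines and NMMA (1073 scaled CPM). In that library of replicate 2, 96 of the 131 B2m UMIs and 38 of the 93 of H2-K1 were in the 1 member with 10 of 10 macrophage markers.

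**Figure D2:**
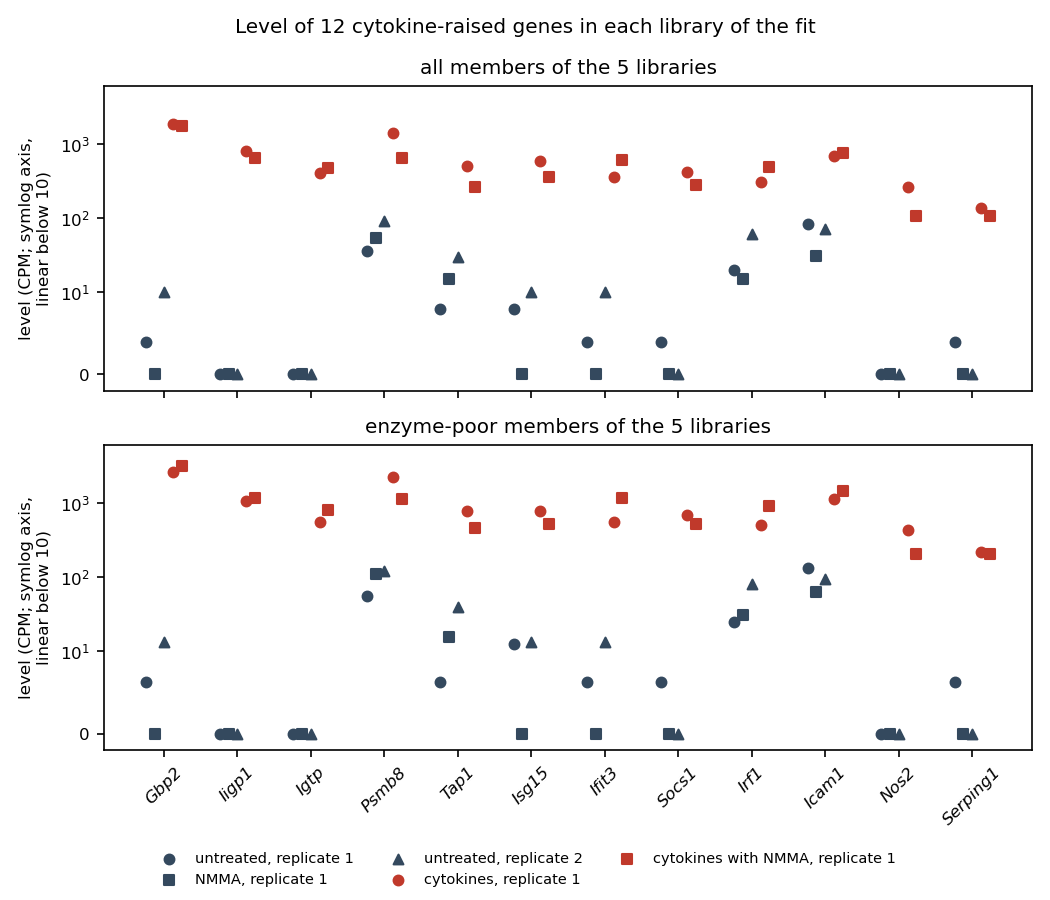
Levels of 12 genes that rose with cytokines, as scaled CPM (on the TMM-scaled UMIs of each library's tested genes, symlog axis, linear below 10), with 1 point for each of the 5 libraries in the fit, for all members above and enzyme-poor members below. Every red point (cytokines) lies above every dark point (no cytokines) of the same gene, as for Gbp2 with 1835 and 1725 scaled CPM against at most 9.96 in all members.

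Adhesion, defence and nitric oxide genes gave single calls. Icam1, the leukocyte adhesion molecule under NF-κB, had 131 and 181 UMIs with cytokines against 21, 4 and 7, a log2 change of 3.65 ± 0.46 (SE, adjusted p = 0.00633 in edgeR's test). The groups did not overlap, and it was the 1 gene called of 8 in the list of NF-κB feedback and target genes (median log2 change 0.28). Serping1, the inhibitor of complement C1, was the 1 called of 7 defence genes, with 26 and 26 UMIs against 1, 0 and 0 (ratio 58, exact 95% interval 9.96 to 2334, list median 2.34).

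Nos2, the inducible nitric oxide synthase, had 50 and 26 UMIs with cytokines and 0 in the 3 others (at least 28.3-fold higher, adjusted p = 0.0147 in edgeR's test). With cytokines and NMMA, 25 of the 26 UMIs were in 1 barcode, which had UMIs of 5 of 6 endocrine markers and a single Krt19 UMI. With cytokines alone, 49 of the 50 were in 5 of the 8 enzyme-poor members. The level of Nos2 in the cytokine with NMMA library therefore rests on 1 barcode, and the only other gene of nitric oxide synthesis that was tested, Gch1, had a log2 change of 0.95 that did not pass.

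Of the 10 called genes with the largest fitted increase, Ubd was in no list. Ubd encodes the ubiquitin-like FAT10 and had 68 and 24 UMIs against 0 (at least 34.2-fold higher, adjusted p = 0.013 in edgeR's test). AW112010, Ltf (lactoferrin, an iron-binding antimicrobial protein) and Ifitm3 (which blocks viral entry) were the other called genes outside the lists, and were named after their values were seen. Ltf had 55 and 19 UMIs against 1, 0 and 0, and Ifitm3 had 515 and 134 against 47, 10 and 34.

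**Figure D3:**
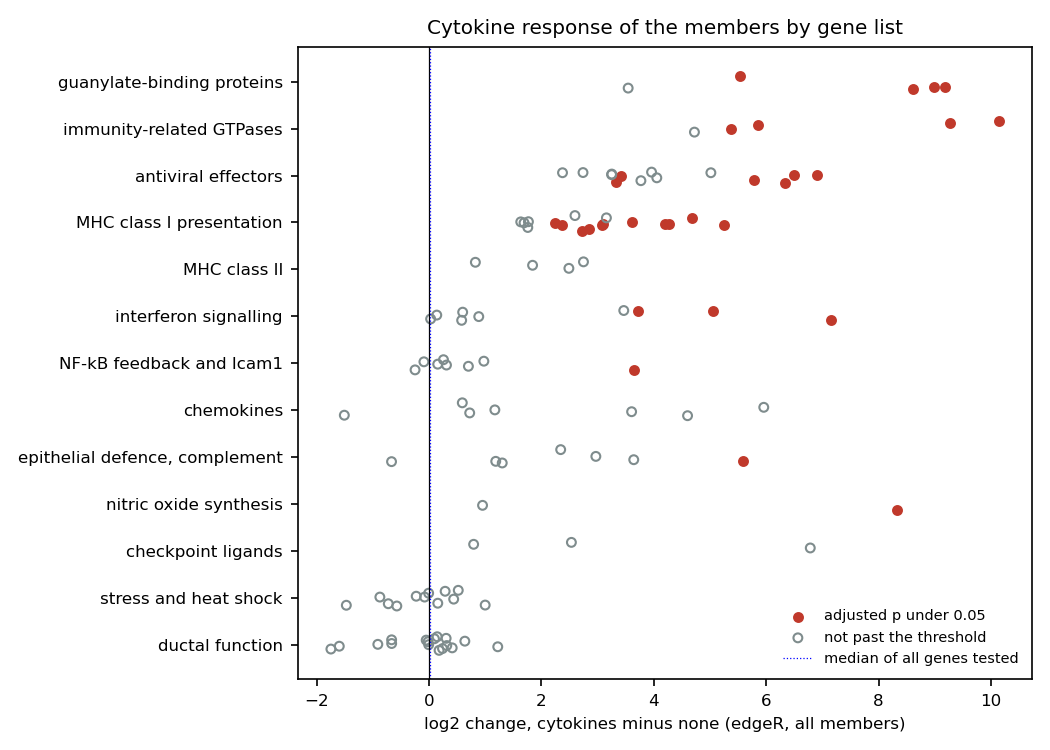
Fitted log2 change of each tested gene with cytokines against none in all members, 1 row per gene list, with filled points at an adjusted p under 0.05 (fitted values of genes with 0 UMIs without cytokines are no bounds) and a dotted line at the median of all genes tested (0.01). Filled points lie in the rows of GTPases, antiviral, MHC class I, signalling, NF-κB, defence and nitric oxide genes, and the rows of stress, ductal function, chemokine, MHC class II and checkpoint genes have none.

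Chemokines and MHC class II genes were called in neither set, with 7 and 4 genes tested and median log2 changes of 1.17 and 2.17. Cxcl10, which attracts T cells, had 410 and 145 UMIs with cytokines against 1, 0 and 11, a log2 change of 5.96 (adjusted p = 0.539 in edgeR's test). Cd74, the class II invariant chain, had 382 and 46 against 1, 0 and 112 (log2 change 2.75, adjusted p = 0.997). H2-Ab1 had 111 and 23 against 0, 0 and 33 (log2 change 2.49, adjusted p = 0.997). In all 3 genes the untreated library of replicate 2 was the highest of those without cytokines, and for Cd74 and H2-Ab1 it was above the library with cytokines and NMMA.

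In that library 111 of the 112 Cd74 UMIs and all 33 of H2-Ab1 were in the 1 member with 10 of 10 macrophage markers. All 10 macrophage markers were at 0 in the 21 enzyme-poor members with cytokines, 12 of which had Cd74 UMIs, against 4 of 37 without. For Cxcl10, 10 of the 11 UMIs were in a member of that library with all 7 marker genes and 0 macrophage markers. In the fit of replicate 1 alone, which lacks that library, the 3 genes rose, with adjusted p = 0.00447 for Cxcl10, 0.00478 for Cd74 and 0.0190 for H2-Ab1 in edgeR's test. Their counts without cytokines are then 1 and 0, 1 and 0, and 0 and 0, so no fitted size is given. The fit with a replicate block, where that library is the only one of its block, called them too (adjusted p = 0.00696, 0.00696 and 0.0272). Leaving out the enzyme-rich members and the 5 with markers of other cells, a choice made after seeing the data, left 2 members in that library, under the minimum of 5, so that fit also held replicate 1 only.

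Stress genes, ductal function genes and checkpoint ligands held no call. Of 12 stress and heat shock genes tested 0 passed, with a median log2 change of -0.04, and Hspa8, the constitutive heat shock chaperone, was at 0.29. Hspa1a had 144 UMIs with cytokines and NMMA, of which 128 were in 1 barcode, and 171 in the untreated library of replicate 2, of which 165 were in 1. Of 17 ductal function genes 0 passed and the median was 0.10. Clu, the most abundant of them, had a log2 change of 0.30. Sox9 had 34 and 38 UMIs against 57, 21 and 7 (log2 change 0.10 ± 0.51, SE). Cd274, which encodes the checkpoint ligand PD-L1, had 14 and 19 UMIs against 0, 0 and 0, with an adjusted p of 0.120 in edgeR's test.

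Onecut2 had a lower fitted level with cytokines that did not pass the test. It had 25 and 26 UMIs with cytokines against 143, 72 and 5 without, a log2 change of -1.75 ± 1.08 (SE, adjusted p = 0.957 in edgeR's test). Spp1, a gene of the rule and so given with no test, had 1031 and 222 UMIs against 4511, 1432 and 82. In both genes the cytokine libraries lay between the libraries without cytokines of replicate 1 and that of replicate 2. Lcn2, an iron-scavenging defence protein, was abundant in every library of replicate 1, with 2973 and 1252 UMIs against 2121, 584 and 20 (log2 change 1.19 ± 1.74, SE).

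NMMA changed no gene past the threshold. The NMMA term, which pools NMMA alone and NMMA with cytokines, had 0 of 3311 genes called (0.0%) by edgeR's quasi-likelihood test, 67 at an unadjusted p under 0.05 and 3 called by DESeq2. Gbp2 had 354 UMIs with cytokines and 418 with cytokines and NMMA, a log2 term of -0.35 ± 0.61 (SE), and Icam1 had 131 and 181 (-0.45 ± 0.47, SE). The lowest adjusted p of the genes named here was that of AW112010, with 177 and 20 UMIs, a log2 term of -3.49 ± 0.75 (SE, adjusted p = 0.808 in edgeR's test). The term sets 2 libraries with NMMA against 3 without, and all NMMA libraries are from replicate 1.

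Per cell, some of the called genes were found in most enzyme-poor members with cytokines and others in a minority. To compare shares at equal depth, each member was thinned to 2500 UMIs, which kept 17 members with cytokines and 30 without. Gbp2 then had a UMI in 13 of 17 members (76.5%, exact Clopper-Pearson 95% interval 50.1 to 93.2) with cytokines and in 6.67% (0.818 to 22.1) without. Igtp was found in 70.6% (44.0 to 89.7) against 0 of 30, which allows up to 10%, and Isg15 in 64.7% (38.3 to 85.8) against 0 of 30. Tap1, Ifit3 and Socs1 were each found in 47.1% of the 17 members with cytokines and Gbp3, Gbp4 and Zbp1 in 41.2%. Ubd was found in 35.3%, Irf7 and Ltf in 29.4% and Serping1 in 23.5%. These intervals cover counting error only, and cells of a pool are not replicates.

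Icam1 and Psmb8 were also found in most members with cytokines. Icam1 had a UMI in 70.6% (44.0 to 89.7) of thinned members with cytokines and 10.0% (2.11 to 26.5) without, and Psmb8 in 76.5% (50.1 to 93.2) against 3.33% (0.0844 to 17.2). Without thinning Psmb8 was found in 95.2% and 37.8%. Lcn2 was found in 76.5% with and 73.3% without cytokines, close to each other on both sides. Spp1 was found in 82.4% and 86.7%, but it is a gene of the rule, which sets its shares in the members in part. Nos2 had a UMI in 17.6% (3.80 to 43.4) with cytokines and in 0 of 30 without. At the same depth, cells of other types were taken from all libraries with cytokines in both replicates. Spp1 was found in 2.38% of 84 endothelial cells and 11.2% of 400 β-cells, and Lcn2 in 2.38% and 29.2%. Gbp2 was found in most β-cells and endothelial cells with cytokines, so neither type serves as a background for it, and the part of free RNA in the members' shares was not tested.

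**Figure D4:**
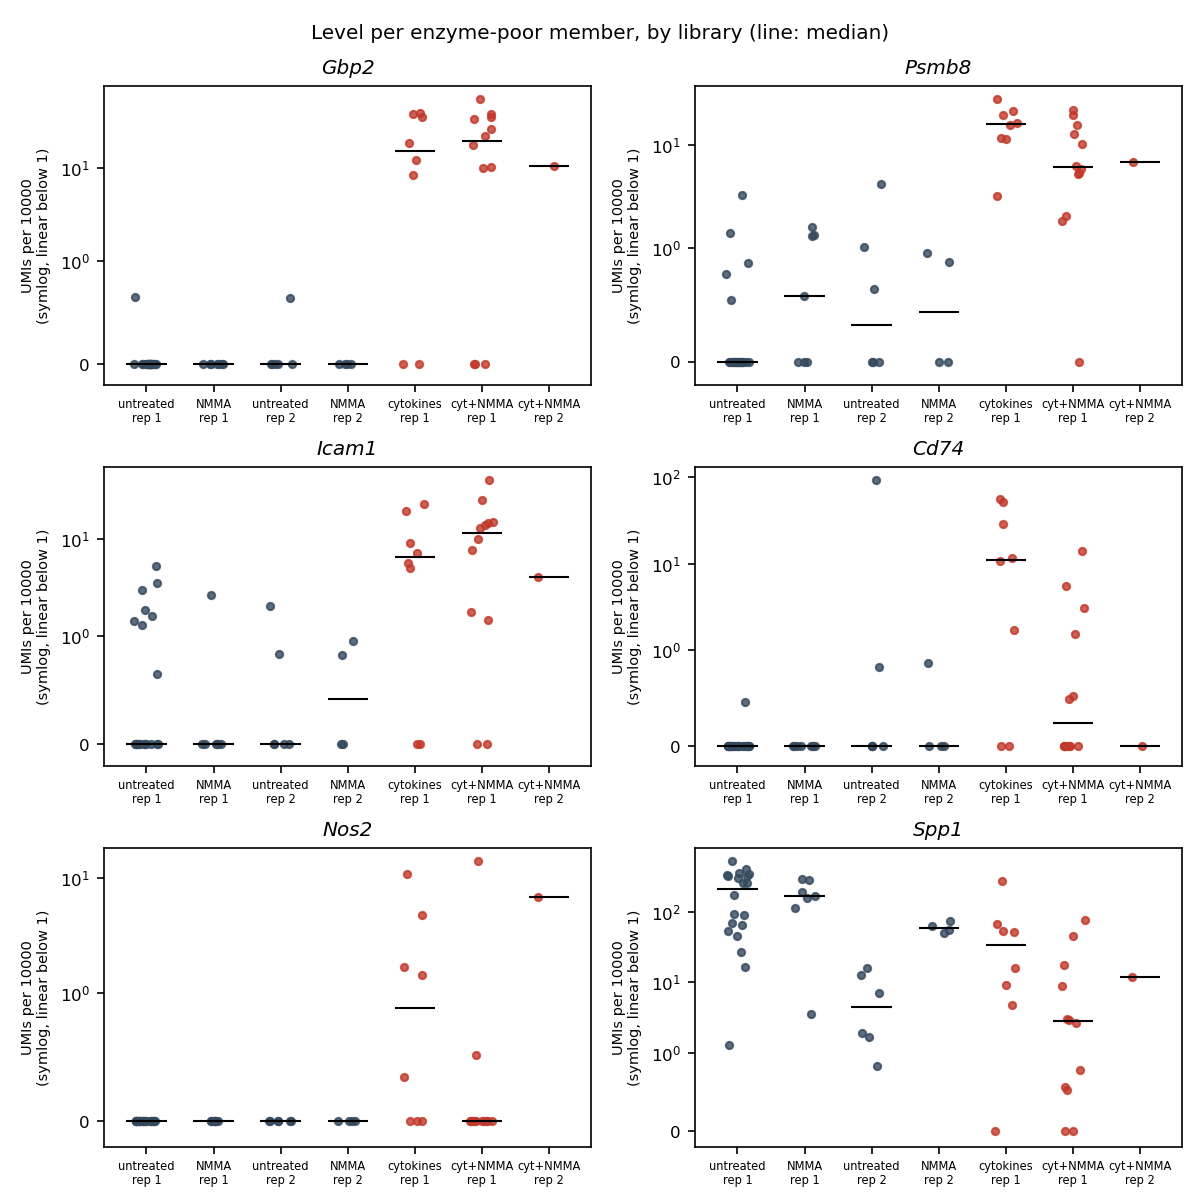
Level of 6 genes in each enzyme-poor member as UMIs per 10000 UMIs of that barcode (symlog axis, linear below 1), with 1 column per library and a line at the median, red with cytokines. Gbp2 has a median of 15.2 with cytokines and 19.4 with cytokines and NMMA in replicate 1, and 0 in the untreated and NMMA libraries. Nos2 has its UMIs in few members, and Spp1, a gene of the rule, in most members of all libraries.

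Replicate 2 had 5 members in libraries too small for the fit. The 1 member with cytokines and NMMA had 23 UMIs of Gbp2, 28 of Iigp1, 15 of Psmb8, 15 of Nos2 and 9 of Icam1, and 32.3% of its UMIs were pancreatic polypeptide genes. The 4 members with NMMA alone had 0 of Gbp2, Iigp1 and Nos2, and 3 each of Psmb8 and Icam1. This is 1 barcode of doubtful identity against 4, and no test was made.

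The enzyme-rich members were summed by condition with no test. Gbp2 had 54 UMIs in the 6 members with cytokines and 20 in the 4 with cytokines and NMMA, and 0 in the 8 members without. Iigp1 had 36 and 8 against 0 and 0, and Psmb8 had 18 and 13 against 0 and 0. Nos2 had 1 UMI in all. Clu and Krt18 were abundant in each condition, Clu from 5305 to 20800 and Krt18 from 3987 to 7186 CPM.

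To ask whether the response differed from that of other islet cells, the difference in response was tested against β-cells and endothelial cells. The β-cells were barcodes with Ins1 and Ins2 at 10% of UMIs or more. Over all 8 libraries there were 6670 β-cells and 282 endothelial cells, and only those in the libraries of the fit entered the test. Against β-cells 6 of 3311 genes (0.181%) had a smaller log2 response in the members and 0 (0.0%) a larger one, at an adjusted p under 0.05 in edgeR's test of the interaction. They were Neurl3, Litaf, Mmp7, Icam1, Cd9 and Ahnak, with differences from -7.60 to -2.96. In enzyme-poor members alone 3 were called, Litaf, Neurl3 and Mmp7, and with all members 0 were called without the untreated or the NMMA library of replicate 1 and 3 without the untreated library of replicate 2 or under a replicate block.

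These genes had a higher level in the members before cytokines. Icam1 in enzyme-poor members was at 108, 51.5 and 69.3 CPM in the untreated, NMMA and replicate 2 untreated libraries, against 0.305, 0.148 and 1.09 in β-cells. With cytokines and with cytokines and NMMA it was at 932 and 1234 in the members and at 229 and 112 in β-cells. The members were above β-cells in each of the 5 libraries, on a linear scale with cytokines as well as without (difference -4.81 ± 0.65, SE, adjusted p = 0.00994 with all members and 0.0576 without enzyme-rich members, in edgeR's test).

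Litaf, a regulator of endosomal traffic, was at 211, 296 and 158 CPM without cytokines and at 304 and 218 with cytokines in enzyme-poor members. In β-cells it was at 8.55, 11.2 and 8.48 without and at 173 and 118 with (difference -3.53 ± 0.38 in enzyme-poor members, SE, adjusted p = 0.00636 in edgeR's test). The groups overlapped in the members and were apart in β-cells. Neurl3, an E3 ubiquitin ligase, went from 20.6, 77.2 and 139 to 571 and 491 in the members and from at most 0.242 to 44.7 and 53.0 in β-cells (difference -4.89 ± 0.59, SE, adjusted p = 0.0085). Cd9, a tetraspanin, was between 614 and 950 without and at 1156 and 614 with cytokines in enzyme-poor members, and went from at most 3.45 to 28.4 and 33.6 in β-cells. Mmp7, a metalloproteinase of duct epithelium, had 0 UMIs in the members of the untreated library of replicate 2 and in β-cells of 2 libraries, so its fitted size is not interpretable.

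Against endothelial cells 1 gene (0.0302%) had a larger and 5 genes (0.151%) a smaller response in the members. Ccl5 and Cxcl2, both chemokines, were the 2 called in enzyme-poor members as well. With all members the total of 6 became 20 without the cytokine library of replicate 1, 2 without its library with cytokines and NMMA, and 3 without either untreated library. Cxcl2 was at 66.8, 193 and 228 CPM without and at 622 and 218 with cytokines in enzyme-poor members, so that the groups overlapped. In endothelial cells it was at most 4.47 without and at 1179 and 157 with (difference -6.45 ± 0.74, SE, adjusted p = 0.00112 in edgeR's test). For Ccl5, 40 of the 41 UMIs in the members of the untreated library of replicate 2 were in the member with macrophage markers, and endothelial cells had 0 in the 3 libraries without cytokines, so its fitted size is not interpretable.

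The others, Mt2, Cryab, Snx10 and Ptgs2, were called only with the enzyme-rich members included. Cryab, a small heat shock protein, was the gene with the larger response. It was at 411, 245 and 406 CPM without and 210 and 409 with cytokines in enzyme-poor members, against 140, 215 and 170 without and 4.64 and 37.0 with cytokines in endothelial cells. Without enzyme-rich members the adjusted p of Cryab was 0.203 in edgeR's test. In all members Cryab had 343 UMIs in the library with cytokines and NMMA, against 60 in its enzyme-poor members, so the higher value there rests on enzyme-rich barcodes.

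At 2500 UMIs per cell, the share of cells with a UMI under cytokines set the members beside both types. Cells of both types were taken from all libraries with cytokines in the 2 replicates, and the β-cells were a random 400. All but 1 of the enzyme-poor members with cytokines were from replicate 1, so the pools of mice differ in these shares. Gbp2 was found in 76.5% of the 17 enzyme-poor members, in 77.2% (72.8 to 81.3) of 400 β-cells and in 100% (95.7 to 100) of 84 endothelial cells. Isg15 was found in 64.7% (38.3 to 85.8) of the members, 10.5% (7.67 to 13.9) of β-cells and 82.1% (72.3 to 89.6) of endothelial cells. Cd74 was found in 52.9% (27.8 to 77.0), 11.2% (8.33 to 14.8) and 4.76% (1.31 to 11.7), and Icam1 in 70.6% (44.0 to 89.7), 25.2% (21.1 to 29.8) and 25.0% (16.2 to 35.6). Cells of 1 library are not replicates, so these shares are descriptions, and only the differences in response named above were tested.

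**Figure D5:**
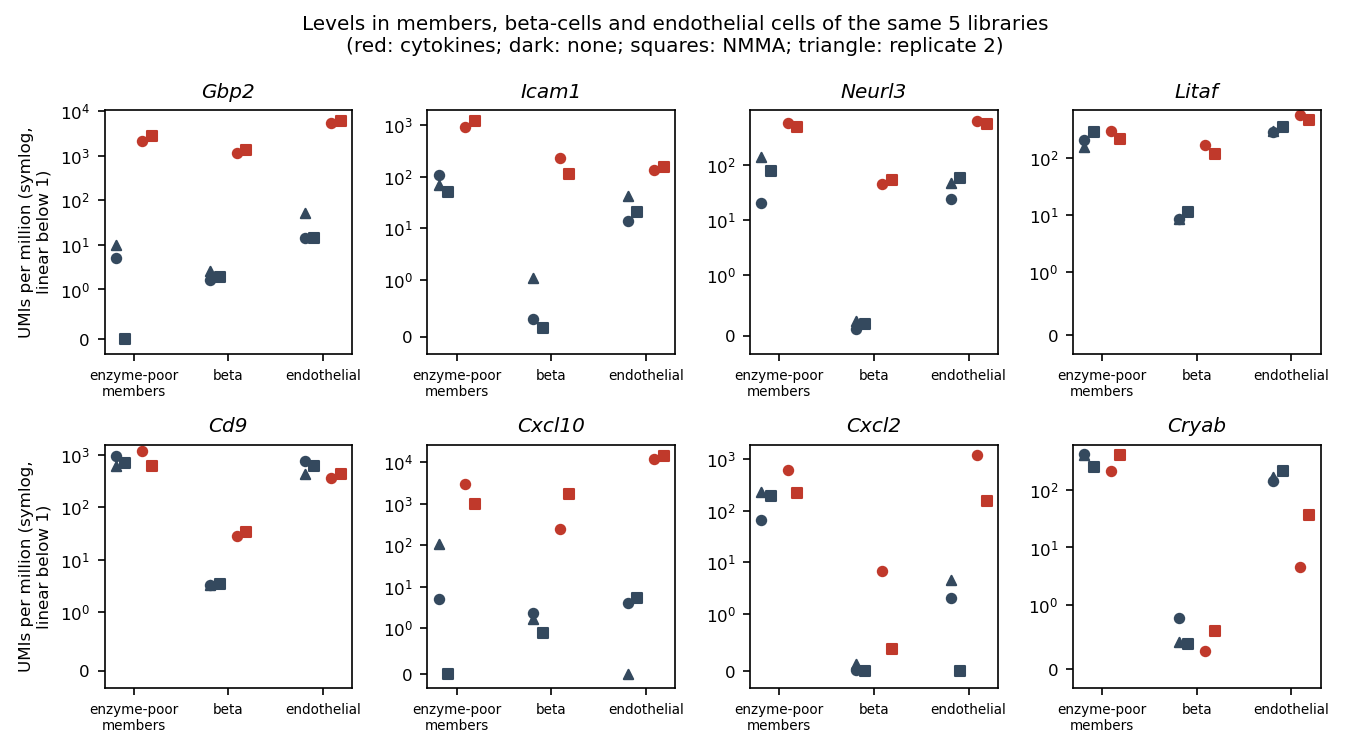
Levels of 8 genes as CPM (symlog axis, linear below 1) in enzyme-poor members, β-cells and endothelial cells, with 1 point for each of the same 5 libraries, red with cytokines, squares with NMMA and a triangle for replicate 2. Icam1 is at 51.5 to 108 in members and at most 1.09 in β-cells without cytokines, and Litaf overlaps between red and dark points in members but not in β-cells.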

How the data were processed

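Single-cell RNA was measured in 8 libraries, a pool of mice per replicate divided over 4 conditions. The authors deposited matrices of unnormalized UMI counts, made with Cell Ranger, whose version is 3.0.0 in the matrix headers of replicate 1 and 6.0.0 in those of replicate 2, and the submitters' processing notes name mm10. The labels name the v2 kit and the study's methods the v3 kit of the 3′ chemistry. The 30406 gene IDs listed in both replicates (31053 and 32285 listed) were used.

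Barcodes were kept with 200 to 5500 genes (replicate 1) or 200 to 6500 (replicate 2) and at most 10% mitochondrial UMIs. Enzyme-rich means 5% or more of UMIs in the acinar list. Doublets were called with scrublet (scanpy 1.11.5, an assumed rate of 0.8% per 1000 barcodes) and removed only as an alternative. UMIs of members were summed per library with at least 5 members and tested by edgeR's robust quasi-likelihood method (version 4.0.16 under R 4.3.3) after filterByExpr and TMM, with cytokines and NMMA as additive terms, a Benjamini-Hochberg threshold of 0.05 and 2 residual degrees of freedom. Class differences were interactions with the library as a block. The SE of a log2 change in edgeR is the absolute change divided by the square root of its F statistic. DESeq2 1.42.0 was an alternative. The procedure was tested on simulated libraries, drawn independently around 1 profile per cell class with no effect of pools or single barcodes. In all members 55% of 4-fold and 99% of 16-fold changes were called. For differences from β-cells these were 23% and 86%, and from endothelial cells 19% and 86%. The simulation cannot speak for effects of pools or single barcodes, since it held none. Because 5 libraries were fitted, both cytokine libraries from 1 pool, p-values hold for these pools only.

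Named genes are list members with the highest level or the smallest adjusted p, the 10 called genes with the largest fitted increase, the 20 genes outside the rule with the highest ratio to other barcodes, and for each class difference the 5 that had the lowest adjusted p. Ahnak and Ptgs2 and the genes said to be outside the lists were added for completeness. The members, lists and tests were chosen with earlier results of these data known. The replicate numbers pair the libraries, since a replicate is 1 pool, and deviations in β-cells correlated between conditions with r from 0.679 to 0.866 over 6 pairs of conditions. Gbp11, Gm12250, Cxcl11, Mx1, Mx2 and Amy2b were not analysed here. Some genes of the lists are not reported here.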

Additional observations from a re-analysis of the deposited data

Results flagged for a closer look

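The response to cytokines differed between the members and β-cells, by a test of the difference itself, in 6 genes. The log2 response of the members minus that of β-cells was -5.06 for Neurl3, -3.19 for Litaf, -7.60 for Mmp7, -4.81 for Icam1, -2.96 for Cd9 and -3.93 for Ahnak. Mmp7 had 0 UMIs in the members of the untreated library of replicate 2 and in β-cells of 2 libraries, so the size of its difference is not interpretable. Without enzyme-rich members only Neurl3, Litaf and Mmp7 passed the threshold.

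The response of the members differed from that of endothelial cells by -11.09 for Ccl5, -6.73 for Cxcl2, -2.90 for Mt2, 3.83 for Cryab, -3.47 for Snx10 and -8.78 for Ptgs2 on the log2 scale. Ccl5 had 0 UMIs in endothelial cells of the 3 libraries without cytokines, and 40 of its 41 UMIs in the members of the untreated library of replicate 2 were in 1 barcode with macrophage markers, so the size of its difference is not interpretable. Mt2 had 412 UMIs in all members of the library with cytokines and NMMA and 81 in its enzyme-poor members. Ptgs2 had 16, 8 and 3 UMIs in the members without cytokines and 1 and 0 with, so the size of its difference rests on few counts. The part of the enzyme-rich barcodes in these differences was not tested beyond leaving them out.

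In data outside the fit, the 1 member with cytokines and NMMA of replicate 2 had 23 UMIs of Gbp2, where the 4 members with NMMA alone had 0. That member also had 5214 UMIs of Ppy, pancreatic polypeptide.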

How the results depend on the processing

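No called gene of the pooled response changed direction in any alternative. The number called was 35 and went to 116 with no filter beyond 1 UMI. Leaving out a library gave 0 to 60 calls (0 without the untreated library of replicate 1, 23 without cytokines replicate 1 and 60 without cytokines with NMMA of replicate 1). In enzyme-poor members it went from 34 to 127 with no filter, to 85 with at least 5 of 7 marker genes, and from 0 to 74 when a library was left out (0 without untreated, 58 without cytokines with NMMA and 74 without NMMA, all replicate 1). The NMMA term gave 3 calls with DESeq2, 10 with no filter, and 0 to 4 on leaving out a library (4 without cytokines and 3 without cytokines with NMMA, both replicate 1). With the replicate as a block, which takes up the only replicate 2 library, 39 genes were called (30 of the 35 among them), 59 in enzyme-poor members, and 3 against β-cells. In replicate 1 alone 42 were called. Against β-cells DESeq2 called 18, no filter 29, the enzyme-poor members 3, and leaving out a library 0 to 8 (0 without untreated or NMMA replicate 1, 3 without untreated replicate 2). Against endothelial cells no filter gave 38, enzyme-poor members 2, and leaving out a library 2 to 20 (20 without cytokines replicate 1, 2 without cytokines with NMMA replicate 1, 3 without either untreated library). The cause of these shifts was not tested.

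The difference in share between cytokines and none turned positive with all kept barcodes as the denominator (0.0038 points) and ran from -0.404 to 0.190 on leaving out a library, being positive at 0.0351 without untreated replicate 1, 0.081 without NMMA replicate 1, 0.190 without cytokines replicate 2 and 0.147 without cytokines with NMMA replicate 2. Permuting within the replicate block gave p = 0.889 (exact permutation, smallest possible 0.0556). The difference between replicates ran from 0.874 to 1.13 points without 1 library. Sox9 went from 163 to 252 and Clps, a lipase cofactor, from 4424 to 0 CPM without enzyme-rich members. Without thinning Psmb8 was found in 95.2% of members with and 37.8% without cytokines. In enzyme-poor members a minimum of 10 barcodes per library left too few libraries. Enzyme-poor members summed to 77767 to 194802 UMIs per fitted library, which limits the genes that could be tested.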

Other observations

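Antimicrobial lectins of the regenerating family were seen in the enzyme-rich members. Reg3b had 1115 UMIs in the 6 enzyme-rich members with cytokines (13499 CPM, UMIs per 1000000 UMIs of these barcodes, exact 95% Poisson interval 12718 to 14316), 76 in the 4 with cytokines and NMMA (493, interval 388 to 617), 89 in the 3 untreated (978, interval 785 to 1203) and 552 in the 5 with NMMA (7129, interval 6547 to 7750). In the enzyme-poor members Reg3b had 0 UMIs in all libraries. Reg3g followed the same order, with 208, 15, 18 and 53 UMIs. There is 1 library per condition and no test, the intervals cover counting error only, and the level without cytokines was above that with cytokines and NMMA in both genes.

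Lcn2 differed among the enzyme-poor members of 1 library. With cytokines its level ran from 0 to 318 UMIs per 10000 with a median of 198 over 8 members, and in the untreated library of replicate 1 from 0 to 335 with a median of 25.7 over 20 members. In the untreated library of replicate 2 only 2 of 6 members had any, and the 4 without were those with markers of other cell types. The 12 enzyme-poor members with cytokines and NMMA in replicate 1 had 0 to 421 Lcn2 UMIs each, and their median is not given. Lcn2 was not among the genes called with cytokines, and the difference between these levels was not tested per member.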
